A study of Rattus norvegicus with 4 samples.

Results

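Potassium channel genes were followed through single nuclei of the rat nucleus accumbens. The members were the genes whose symbol starts with Kcn, apart from Kcnip genes, Kcnd2, Kcnd3 and Kcna4, with at least 100 UMIs (unique molecular identifiers, 1 for each captured RNA molecule) summed over the 4 libraries. Of 89 such symbols among the 30560 genes, 7 were left out by name, 18 had fewer than 100 UMIs, and 64 were members. Just inside the limit were Kcnj13 with 201, Kcnab3 with 143 and Kcnk5 with 106 UMIs, and just outside it were Kcnn4 with 76, Kcnk7 with 61 and Kcnj8 with 50. The total UMI count chose the members. Their distribution over classes of nuclei and over treatments did not. Of the 64, all had UMIs in each library. Most encode pore-forming subunits, while the Kcnab, Kcne and Kcnmb genes encode accessory subunits and Kcnrg encodes a regulator that forms no pore.

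Sprague-Dawley rats aged 90 to 120 days received cocaine at 20 mg/kg into the peritoneum or the same volume of saline, once daily for 7 days, and were placed in an open field each time. Tissue was taken 1 h after the last injection with a 2 mm punch centred on the core of the nucleus accumbens, a ventral part of the striatum. Each library pooled nuclei of 4 rats of 1 sex and 1 treatment, giving a saline female, a saline male, a cocaine female and a cocaine male library from 16 rats. A treatment therefore had 2 libraries, 1 of each sex, and the spread between rats within a library was not measured.

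Potassium channels let potassium leave or enter cells and so set the resting potential, the shape of the action potential and the rate of firing. Voltage-gated channels open on depolarisation, calcium- and sodium-activated channels respond to ions inside the cell, inward rectifiers pass current best near rest, and 2-pore channels carry a steady leak. Medium spiny neurons (MSNs), the main neurons of the striatum, are known for a hyperpolarised resting state that inward rectifiers hold, and fall mostly into neurons with the dopamine receptor Drd1 (D1) and neurons with Drd2 (D2). Fast-spiking interneurons are known for Kv3 channels, which allow rapid repolarisation, and astrocytes for inward rectifiers that take up potassium released by neurons.

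After filters and removal of presumed doublets, 24843 of 26228 nuclei were kept, from libraries with 31484217 to 40737786 UMIs. Any pair of libraries shared 10 to 18 cell barcodes. Marker genes, none of them a potassium channel gene, placed 21609 nuclei (87.0%) in classes, of which 11 had enough nuclei in each library to be tested. There were 3334 D1-MSN-like, 3409 D2-MSN-like and 1977 eccentric-MSN-like nuclei, 264 Sst-interneuron-like, 252 Pthlh-interneuron-like, 1529 other GABAergic and 351 glutamatergic-like nuclei, and 6533 oligodendrocyte-like, 1836 astrocyte-like, 1116 oligodendrocyte-precursor-like (OPC-like) and 803 microglia-like nuclei. In each class the listed markers of its own name had UMIs. The same lists had assigned the nuclei, so this is no check of their identity. Glutamatergic-like nuclei were unevenly spread, 43 from saline females, 38 from saline males, 183 from cocaine females and 87 from cocaine males. Levels below are CPM, the UMIs of a gene divided by all UMIs of the class in that library and scaled to parts per 1e6, which are 3′ counts not corrected for gene length, so levels are compared between classes for 1 gene and not between genes. A lower CPM in a class can come from less of the RNA per nucleus or from more of other RNA, and these cannot be told apart.

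Where a member's levels turned on the class, the 250 bases before its annotated start are shown from the RefSeq promoter table on build GRCr8, read on the gene's strand. Kcnj6 (chr11:47778349-47778598, minus strand) and Kcnk4 (chr1:213555862-213556111, minus strand) stood higher in the D1 class and in the D2 class, respectively, and Kcnj10 (chr13:87334260-87334509, plus strand) and Kcnj16 (chr10:96517074-96517323, plus strand) are the glial inward rectifiers described further on. Capitals mark matches, on either strand, to a GC box with the letters GGGCGG, to an NF-Y box with the letters CCAAT or to an AP-1 site with the letters TGANTCA.
Kcnj6: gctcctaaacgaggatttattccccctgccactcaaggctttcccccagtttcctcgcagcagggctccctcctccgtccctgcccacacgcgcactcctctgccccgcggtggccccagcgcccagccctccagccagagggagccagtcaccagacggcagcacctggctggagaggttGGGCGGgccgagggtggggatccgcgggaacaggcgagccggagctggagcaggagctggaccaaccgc
Kcnk4: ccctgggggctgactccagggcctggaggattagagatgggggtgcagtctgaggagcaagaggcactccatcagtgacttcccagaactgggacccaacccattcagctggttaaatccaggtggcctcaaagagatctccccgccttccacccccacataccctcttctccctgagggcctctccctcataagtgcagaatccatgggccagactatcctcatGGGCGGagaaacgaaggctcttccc
Kcnj10: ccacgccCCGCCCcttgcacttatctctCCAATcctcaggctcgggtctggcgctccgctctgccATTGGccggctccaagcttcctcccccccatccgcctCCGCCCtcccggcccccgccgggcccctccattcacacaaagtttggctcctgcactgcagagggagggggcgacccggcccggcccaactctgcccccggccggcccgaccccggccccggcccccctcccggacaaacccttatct
Kcnj16: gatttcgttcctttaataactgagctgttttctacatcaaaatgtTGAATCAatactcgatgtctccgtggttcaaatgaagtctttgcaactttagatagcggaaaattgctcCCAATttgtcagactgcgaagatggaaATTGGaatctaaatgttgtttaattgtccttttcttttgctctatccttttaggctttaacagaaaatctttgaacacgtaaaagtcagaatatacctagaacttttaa
The table held promoters for 42 of the 64 members, some with more than 1 start, 46 in all. A GC box was found in 24 of the 46 (52.2%), against 30.5% of all 33469 promoters in the table. An NF-Y box was found in 12 (26.1%), against 34.0% of all. The AP-1 letters occurred in 1 member promoter, that of Kcnj16 (2.17%), against 6.34% of all, and the full cAMP response element TGACGTCA occurred in none, against 1.59% of all. The median GC content was 63.8% for the member promoters and 51.2% for all. The promoter of Kcnj16 stood apart with 33.6% GC, while those of Kcnj6, Kcnk4 and Kcnj10 held 69.2%, 58.4% and 72.4%.

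The first question was which classes carry which channels. Out of every 10000 UMIs, the members together took 112 ± 2.54 in the D1-MSN-like class and 106 ± 2.20 in the D2 class (mean ± SD, n = 4 libraries). They took 103 ± 9.96 in glutamatergic-like and 100.0 ± 6.17 in Pthlh-interneuron-like nuclei, 89.7 ± 1.55 in eccentric-MSN-like and 67.0 ± 2.56 in other GABAergic nuclei. The share was lower in Sst-interneuron-like nuclei (51.1 ± 2.67), OPC-like nuclei (50.3 ± 1.82), oligodendrocyte-like nuclei (38.1 ± 2.66), astrocyte-like nuclei (25.2 ± 1.31) and microglia-like nuclei (21.4 ± 2.31). Within each of the 4 libraries the share was higher in the D1 class (115, 113, 109 and 110) than in the D2 class (109, 107, 104 and 104). The libraries of Sst-interneuron-like nuclei (49.5 to 55.1) and OPC-like nuclei (48.8 to 52.9) overlapped.

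**Figure D1:**
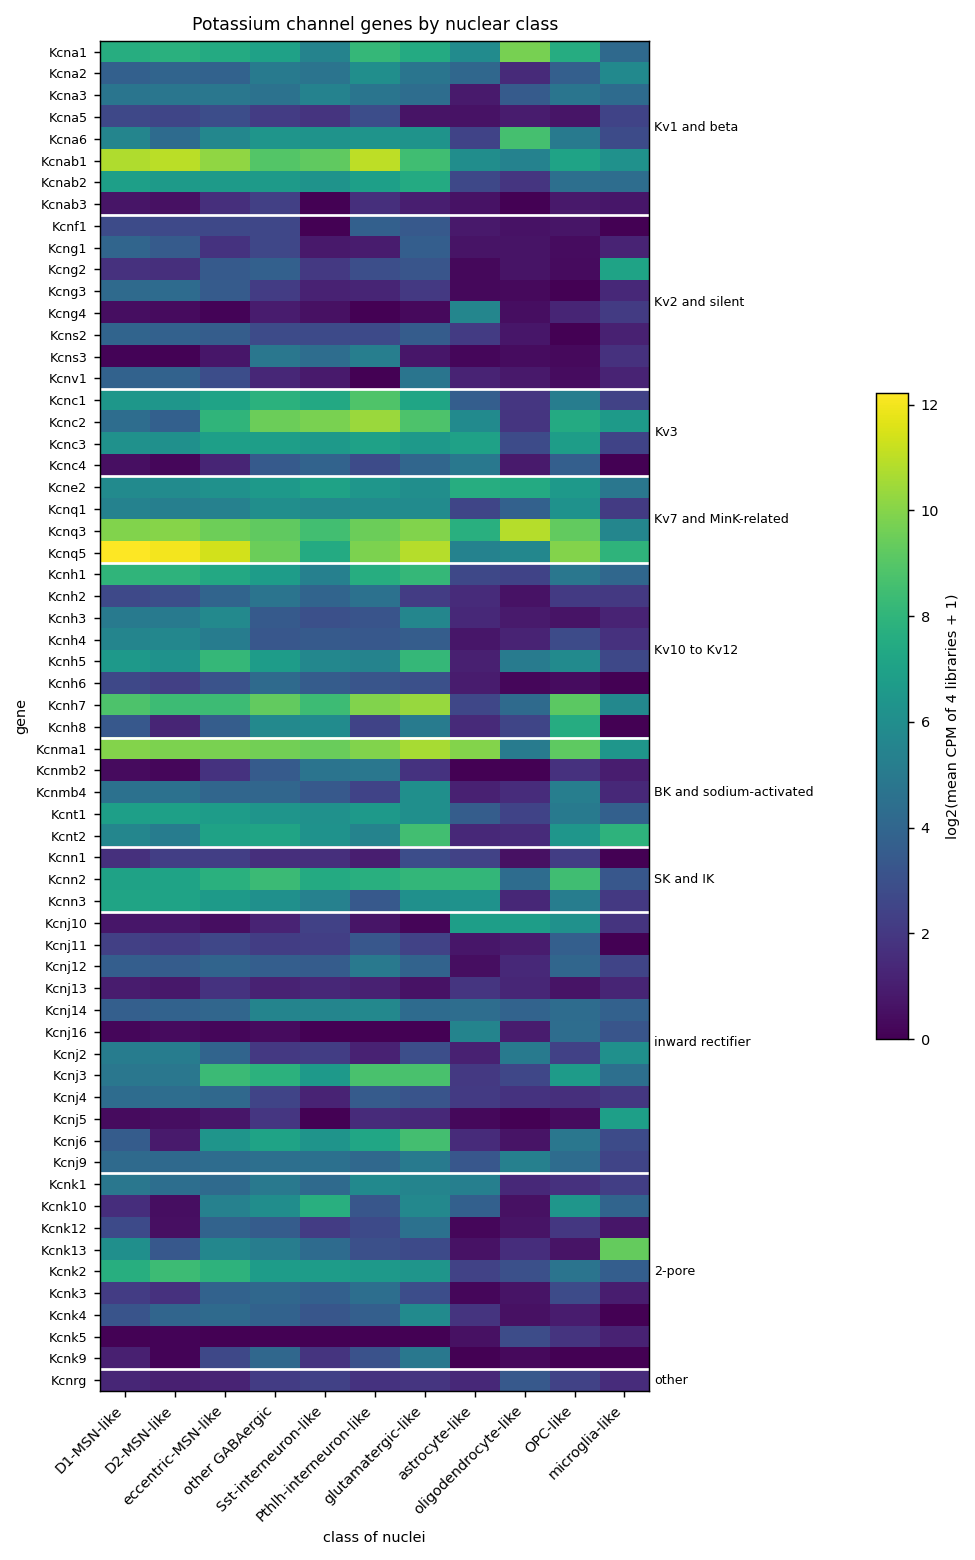
Mean level of 62 of the 64 potassium channel genes (rows, grouped by family) in the 11 classes of nuclei (columns), as log2 of the mean CPM of 4 libraries plus 1. Kcnq5 is brightest in the MSN-like classes, Kcna1 and Kcna6 in oligodendrocyte-like nuclei, Kcnc2 in Pthlh-interneuron-like nuclei and Kcnk13 in microglia-like nuclei.

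Each class was then tested against the mean of the other classes with edgeR's quasi-likelihood test over 13380 genes, with the library as a block. The test compares log levels, and a gene was called when its Benjamini-Hochberg adjusted p was under 0.05 and its log2 difference at least 1 in size. Of the 64 members, 60 passed the filter on low counts. Eccentric-MSN-like nuclei had 35 members called higher and 1 lower, where 13.0% of all genes were called higher and 4.29% lower. Glutamatergic-like nuclei had 33 higher and 1 lower (14.3% and 4.07% of all genes), other GABAergic nuclei 29 and 2 (14.0% and 2.88%), D1-MSN-like nuclei 28 and 5 (13.5% and 7.79%), Pthlh-interneuron-like nuclei 28 and 4 (10.9% and 4.96%), D2-MSN-like nuclei 23 and 9 (13.4% and 8.58%) and Sst-interneuron-like nuclei 14 and 3 (10.9% and 3.65%). The glial classes went the other way. Oligodendrocyte-like nuclei had 9 members higher and 34 lower (16.4% and 20.4% of all genes), astrocyte-like nuclei 9 and 33 (18.9% and 14.4%) and microglia-like nuclei 7 and 32 (17.2% and 24.3%), while OPC-like nuclei had 12 and 14 (14.5% and 8.67%). The median log2 difference of the members was 1.34 in glutamatergic-like, 1.30 in eccentric-MSN-like and 0.92 in D1-MSN-like nuclei and -2.51 in oligodendrocyte-like, -2.30 in astrocyte-like and -2.25 in microglia-like nuclei, beside medians for all genes between -0.21 and 0.07.

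A stricter description asks for a class in which a gene's lowest library exceeded the highest library of every other class. This held for 19 of the 64 members. Among the 60 tested members it held for 18, and among all tested genes for 32.8%, so that members were set apart in this way about as often as other genes. Oligodendrocyte-like, microglia-like and glutamatergic-like nuclei had 4 such members each, Pthlh-interneuron-like nuclei 2, and D1-MSN-like, D2-MSN-like, Sst-interneuron-like, OPC-like and astrocyte-like nuclei 1 each. For all tested genes the shares were 6.38% in oligodendrocyte-like, 12.1% in microglia-like, 0.919% in glutamatergic-like, 1.15% in Pthlh-interneuron-like, 0.351% for the D1 and 0.717% for the D2 class, 0.77% in Sst-interneuron-like, 2.5% in OPC-like and 7.3% in astrocyte-like nuclei. Eccentric-MSN-like nuclei (0.411% of genes) and other GABAergic nuclei (0.187%) had no such member.

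Among the Kv7 genes, Kcnq5, which encodes a pore subunit of the M current, a slow potassium current that restrains firing, gave 42.9% (D1) and 39.3% (D2) of the members' UMIs in the spiny classes. Such shares are of UMIs as deposited. They are not corrected for gene length and depend on whether intronic reads were counted, so they do not rank genes by level. In the D1 class its level was 4829 CPM (saline females), 4832 CPM (saline males), 4706 CPM (cocaine females) and 4786 CPM (cocaine males), an order kept for 4 values below. In the D2 class it was 4217, 4148, 4118 and 4168 CPM. The D1 libraries all stood above the D2 libraries, and both stood above all other classes, with log2 differences from the other classes of 3.43 ± 0.10 (SE; edgeR adjusted p = 2.17e-32) and 3.22 ± 0.10 (adjusted p = 3.01e-31). Its usual partner in the M current, Kcnq3, was highest elsewhere, in oligodendrocyte-like nuclei, where it gave 49.4% of the members' UMIs. Kcnq3 stood there at 2162 and 1691 CPM (saline female and male) and 2001 and 1537 CPM (cocaine female and male), against 976 ± 29.95 CPM (D1) and 1041 ± 31.2 CPM (D2) in the spiny classes (n = 4).

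Some silent Kv2-type subunits, which do not conduct alone but alter Kv2 channels, also stood high in MSN-like nuclei. In the D1 and D2 classes Kcng3 stood at 17.96 ± 1.39 and 18.6 ± 2.56 CPM (n = 4), with log2 differences of 3.89 ± 0.19 and 3.96 ± 0.19 from the other classes (edgeR adjusted p = 1.03e-22 and 2.98e-23). Kcng1 (14.8 ± 1.40 CPM in D1-MSN-like nuclei) and Kcnv1 (13.4 ± 2.70 CPM in D1-MSN-like nuclei) were called higher there too. Other members of that group were glial. Kcng4 was set apart in astrocyte-like nuclei at 39.6, 41.7, 55.3 and 52.6 CPM (saline female, saline male, cocaine female, cocaine male), and Kcng2 in microglia-like nuclei at 139, 116, 155 and 131 CPM.

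The classical inward rectifiers of spiny neurons were at similar levels in the D1 and D2 classes. Kcnj2 had 33.8 ± 2.65 CPM in the former and 34.5 ± 2.17 CPM in the latter, a log2 difference of -0.05 with a 95% interval from -0.18 to 0.09. Kcnj4 had 19.0 ± 2.15 and 19.6 ± 2.89 CPM, a difference of -0.07 (interval -0.24 to 0.11), and Kcnj12 differed by 0.10 (interval -0.12 to 0.33). Kcnj2 was nevertheless highest in microglia-like nuclei, at 53.2, 86.7, 61.0 and 79.6 CPM.

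The G-protein-gated inward rectifiers, which open when receptors coupled to inhibitory G proteins are active, fell into separate places. Kcnj3 was low in the D1 class (27.6 ± 7.62 CPM) and the D2 class (27.5 ± 5.74 CPM). It was high in eccentric-MSN-like nuclei, at 343, 325, 313 and 320 CPM. In Pthlh-interneuron-like and glutamatergic-like nuclei it was 422 ± 76.3 and 418 ± 56.9 CPM, values that overlap. Kcnj6 was set apart in glutamatergic-like nuclei at 400, 281, 362 and 472 CPM (log2 difference 4.84 ± 0.11, edgeR adjusted p = 2.92e-35). Kcnj5 was highest in microglia-like nuclei, at 117, 130, 128 and 108 CPM, with no other class above a mean of 2.82 CPM. Kcnj5 UMIs occurred in 15.9% of microglia-like nuclei (median 1345 UMIs per nucleus) and in 0.264% of D2-MSN-like nuclei (median 7417). Kcnj9 ranged less between neurons, from 16.5 ± 6.41 CPM in Pthlh-interneuron-like to 30.6 ± 2.72 CPM in glutamatergic-like nuclei, and had 38.6 ± 15.7 CPM in oligodendrocyte-like nuclei.

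Kv3 genes marked interneurons. Kcnc2 stood in Pthlh-interneuron-like nuclei at 1469, 1535, 1314 and 1121 CPM and in Sst-interneuron-like nuclei at 884, 660, 1120 and 777 CPM. The lowest Pthlh-interneuron-like library, from cocaine males, and the highest Sst-interneuron-like library, from cocaine females, almost met. Both classes were far above the D1 class (19.9 ± 3.67 CPM) and the D2 class (12.3 ± 6.86 CPM). Kcnc1 was set apart in Pthlh-interneuron-like nuclei at 503, 465, 448 and 444 CPM, with 221 ± 20.5 CPM in other GABAergic nuclei next. These 2 classes were not cleanly separate. When nuclei were instead grouped into Leiden clusters, the cluster named for the Pthlh class held 217 Pthlh-gated nuclei and 219 gated as other GABAergic. The silent subunit Kcns3 was at 37.1 ± 21.3 CPM in Pthlh-interneuron-like and 27.9 ± 12.0 CPM in other GABAergic nuclei, and the BK accessory subunit Kcnmb2 at 27.9 ± 9.36 CPM in Pthlh-interneuron-like nuclei. Sst-interneuron-like nuclei were instead set apart by the 2-pore channel gene Kcnk10, at 137, 285, 180 and 243 CPM, against 85.1 ± 17.6 CPM in OPC-like nuclei.

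The Kcnh genes, which encode voltage-gated channels of the Eag, Erg and Elk types, showed further contrasts between classes. Kcnh3 and Kcnh5 were called higher in eccentric-MSN-like nuclei, at 52.5 ± 0.545 and 280 ± 13.2 CPM (n = 4). Kcnh8 was highest in OPC-like nuclei, at 189, 177, 194 and 195 CPM. Kcnh7 had 1284 CPM in glutamatergic-like and 972 CPM in Pthlh-interneuron-like nuclei, and their libraries overlapped. Glutamatergic-like nuclei were also set apart by Kcnma1, the BK channel pore (1210, 1798, 1760 and 1528 CPM), by the mechanically gated 2-pore channel gene Kcnk4 (38.7, 45.2, 76.2 and 64.7 CPM) and by the beta subunit gene Kcnab2 (178 ± 22.4 CPM).

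Glial classes had few members above the other classes but with wide margins. In oligodendrocyte-like nuclei Kcna1, a Kv1 gene best known from axons, stood at 781, 776, 834 and 963 CPM, and Kcna6 at 467, 331, 444 and 342 CPM. For Kcna1 the next class was Pthlh-interneuron-like nuclei at 281 CPM. Kcnk5 was set apart there too, at 6.15 ± 0.390 CPM. In microglia-like nuclei Kcnk13, the 2-pore channel known for setting the resting potential of microglia, stood at 593, 540, 696 and 721 CPM, a log2 difference of 6.04 ± 0.11 from the other classes (edgeR adjusted p = 6.77e-42), and had UMIs in 53.5% of nuclei, against 0.352% of oligodendrocyte-like nuclei (median 1737 UMIs per nucleus). The next class for Kcnk13 was D1-MSN-like nuclei at 67.8 CPM.

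Kcnj10 and Kcnj16, whose products assemble into the potassium-uptake channels of glia, were not distributed alike. Kcnj10 stood at 122, 124, 119 and 91.0 CPM in astrocyte-like nuclei, at 108, 109, 116 and 115 CPM in oligodendrocyte-like nuclei and at 72.5 ± 11.7 CPM in OPC-like nuclei, and the astrocyte-like and oligodendrocyte-like libraries overlapped. Kcnj16 was called higher in astrocyte-like nuclei (45.1 ± 18.9 CPM) and OPC-like nuclei (19.9 ± 6.57 CPM), with UMIs in 11.5% of astrocyte-like nuclei (median 3053 UMIs per nucleus) and in 0.184% of oligodendrocyte-like nuclei (median 1737). Kcnma1 gave 38.8% of the members' UMIs in astrocyte-like nuclei, at 982 ± 124 CPM, a level within the range of the MSN-like classes.

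Low glial values of neuronal channels need a yardstick for free RNA carried over from neurons. Rgs9, a spiny neuron marker, was measured in oligodendrocyte-like nuclei at 1.67%, in astrocyte-like nuclei at 1.70% and in microglia-like nuclei at 3.79% of its mean in D1- and D2-MSN-like nuclei. Kcnq5 stood at 1.11%, 0.925% and 5.59% in these classes, Kcnab1 at 2.28%, 3.43% and 3.89%, and Kcnk2 at 2.51%, 1.61% and 4.32%. These members were thus near the carry-over of Rgs9 in glia.

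The second question was how the D1 and D2 classes differ. Of 51 members tested, 20 were called (39.2%), where 14.6% of the 12534 genes tested were called (edgeR quasi-likelihood test, library as a block, adjusted p under 0.05). Of these 20, 15 were higher in the D1 class and 5 in the D2 class, beside 7.93% and 6.71% of all genes. In 6 of the 20 the difference was at least 2-fold, as for 2.35% of all genes, and all 6 were higher in D1-MSN-like nuclei. The median log2 difference of the members was 0.07, and that of all genes 0.00.

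Among the 2-pore channels, Kcnk13 differed most clearly. It stood at 63.0, 65.0, 77.5 and 65.7 CPM in the D1 class and at 10.3, 8.94, 10.1 and 8.35 CPM in the D2 class (saline female, saline male, cocaine female, cocaine male). The groups did not overlap, and the difference was 7.10-fold (log2 2.83 ± 0.08 SE, edgeR adjusted p = 9.67e-16). Kcnk12, a close relative of Kcnk13, was lower in level, at 6.52, 5.82, 5.26 and 4.98 CPM against 0.449, 0.314, 0.845 and 0 CPM, and was 13.2-fold higher in D1-MSN-like nuclei (adjusted p = 1.41e-07). Kcnk1 was higher in D1-MSN-like nuclei as well, by a log2 difference of 0.44 ± 0.08 (adjusted p = 0.000325).

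Kcnk2 and Kcnk4, which encode mechanically gated 2-pore channels, went the opposite way. D1-MSN-like nuclei held Kcnk2 at 176, 250, 179 and 204 CPM, and the D2 class held it at 304, 376, 303 and 369 CPM, a log2 difference of -0.76 ± 0.04 (adjusted p = 1.53e-11). Male libraries were above female libraries for Kcnk2 in both classes, and D2-MSN-like nuclei were higher in 4 of 4 libraries. Kcnk4 stood at 9.77, 7.71, 9.27 and 5.83 CPM against 14.8, 14.3, 17.04 and 13.5 CPM (log2 -0.90 ± 0.12, adjusted p = 1.36e-05). Kcnk10, another gene of that group, was scarce, and was instead higher in D1-MSN-like nuclei (2.06 ± 0.394 against 0.367 ± 0.293 CPM).

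Of the inward rectifiers, Kcnj6 was the 1 member called. Its level was 7.82, 13.4, 13.7 and 7.82 CPM in the D1 class against 1.498, 0.314, 0.986 and 0.566 CPM in the D2 class, 12.2-fold (log2 3.61 ± 0.27, edgeR adjusted p = 3.12e-09). Kcnj6 UMIs were seen in 2.97% of the D1 nuclei (median 7655 UMIs per nucleus) and 0.499% of the D2 nuclei (median 7417), and in 0.107% of oligodendrocyte-like nuclei, so that the gene was rarely detected in either spiny class. Kcnj3, with which it forms channels, differed by a log2 of -0.02 (95% interval -0.20 to 0.16), and Kcnj9 by 0.06 (interval -0.16 to 0.27). More eccentric-MSN-like (27.4%) and other GABAergic nuclei (47.4%) had Kcnj6 UMIs. Leiden clusters named for those classes held 66 and 36 nuclei gated as D1, against 18 and 4 gated as D2. An unnamed cluster held 64 and 1. How far such nuclei add to the differences of Kcnj6, Kcnk12, Kcnk10 and Kcnh8 was not tested. With classes from Leiden clusters, Kcnj6, Kcnk12 and Kcnh8 kept their calls. The 2 clusters named for the D1 class held 29 and 178 nuclei gated as eccentric, and 11 and 29 gated as other GABAergic. The 2 named for the D2 class held 14 and 63, and 13 and 0. That fit therefore cannot show what such nuclei add. Over all alternatives the log2 difference of Kcnj6 ran from 2.23 to 4.14.

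Among voltage-gated genes, Kcna6 stood at 45.1, 43.1, 52.9 and 42.4 CPM in the D1 class against 14.4, 20.2, 19.7 and 19.7 CPM in the D2 class (log2 1.29 ± 0.09, adjusted p = 8.11e-10). Kcnh8 stood at 9.77, 10.6, 9.55 and 7.96 CPM against 1.198, 1.41, 1.55 and 1.56 CPM (log2 2.69 ± 0.20, adjusted p = 2.75e-09). For both genes the D1 and D2 libraries lay far apart. Kcnh7 (452 ± 10.8 against 335 ± 30.2 CPM) and Kcnh5 (96.7 ± 7.56 against 73.2 ± 4.202 CPM) were also higher in D1-MSN-like nuclei. The beta subunit gene Kcnab1, whose product speeds the inactivation of Kv1 channels, was higher in D2-MSN-like nuclei in 4 of 4 libraries by a log2 difference of -0.21 ± 0.03 (adjusted p = 2.32e-05), although the libraries of the 2 classes overlapped across treatments. Kcnq3 (log2 -0.11 ± 0.03, adjusted p = 0.00792) and the SK gene Kcnn1 (-0.83 ± 0.23, adjusted p = 0.0184, at 2.19 and 3.90 CPM) were higher in D2-MSN-like nuclei. Kcnn1 lost its call without the saline female or without the cocaine male library, and so did Kcnq3. The other SK genes Kcnn2 (log2 -0.07, 95% interval -0.17 to 0.03) and Kcnn3 (0.05, interval -0.06 to 0.15) were not called.

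**Figure D2:**
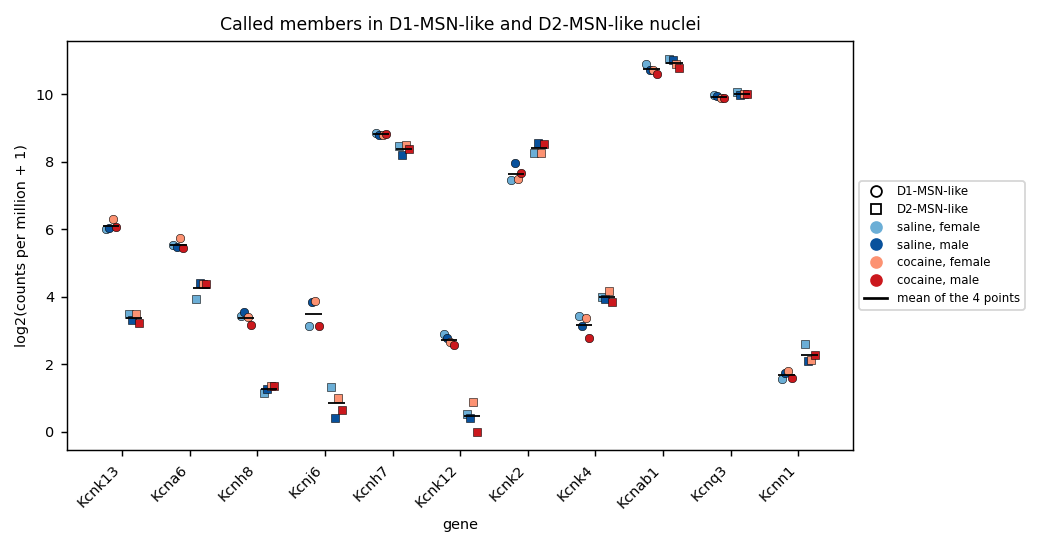
Level of the 11 named members that were called between the D1-MSN-like (circles) and D2-MSN-like (squares) classes, in each of the 4 libraries, as log2 of CPM plus 1, with lines at the mean of the 4 points. Kcnk13, Kcna6, Kcnh8, Kcnj6 and Kcnk12 are separated widely, and Kcnq3 and Kcnab1 differ little.

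Genes that handle potassium or partner these channels were counted from a list of 40, of which 33 were tested. In D1-MSN-like against D2-MSN-like nuclei edgeR called 7 higher and 3 lower, beside 7.93% and 6.71% of all genes, and DESeq2 called 5 of the list. The chloride importer gene Slc12a2 was higher in D1-MSN-like nuclei by 0.60 ± 0.06, and Cntnap2, which helps to cluster Kv1 channels, was lower by a log2 difference of -0.28 ± 0.02.

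D1-MSN-like nuclei themselves were not uniform. Nuclei with UMIs of Reln and none of Htr4 (1151 nuclei) and nuclei with UMIs of Htr4 and none of Reln (725 nuclei) were set side by side. The 252 nuclei with UMIs of both genes and the 1206 with UMIs of neither were outside these groups. This split, and the 11 members set out for it, were chosen after their values had been seen, and no test is given. Kcnc2 stood at 4.44, 4.35, 3.89 and 7.00 CPM in the Reln nuclei and at 42.5, 43.0, 61.8 and 72.3 CPM in the Htr4 nuclei (saline female, saline male, cocaine female, cocaine male). Kcnt2, a sodium-activated channel gene, stood at 8.88, 20.8, 10.1 and 16.3 CPM against 67.2, 128, 116 and 118 CPM. Kcnj6 stood at 0.370, 0.483, 6.62 and 7.39 CPM against 19.0, 31.8, 18.0 and 21.8 CPM. In each of these genes the lowest Htr4 library exceeded the highest Reln library, as it did for Kcnh5, Kcnj3, Kcnk12, Kcnh8 and Kcnk10, although Kcnk10 had 2 UMIs in the Reln and 21 in the Htr4 nuclei. Means in nuclei with neither gene were near those in Htr4 nuclei for Kcnk12 (9.16 and 8.39 CPM) and Kcnh8 (11.7 and 12.3 CPM). For Kcnj6 (12.9 CPM), Kcnc2 (15.6 CPM), Kcnt2 (34.3 CPM), Kcnh5 (83.2 CPM) and Kcnj3 (16.5 CPM) they lay between Reln and Htr4 means. For Kcnk10 the neither and Htr4 means were 3.65 and 3.34 CPM. Of the 51 members tested between the D1 and D2 classes, 14 had each Htr4 library above each Reln library and 7 the reverse, beside 8.31% and 4.68% of 12532 genes.

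For Kcnk13 (67.5 ± 5.36 and 70.1 ± 20.4 CPM), Kcna6 (43.9 ± 5.30 and 39.7 ± 6.88 CPM) and Kcnk2 (202 ± 24.0 and 245 ± 47.5 CPM) the Reln and Htr4 nuclei overlapped. Kcnk13 and Kcna6 were above the D2-MSN-like level in both kinds of nuclei, while Kcnc2 in Reln nuclei was not above it (12.3 ± 6.86 CPM in D2-MSN-like nuclei). The median UMI count was 8139 in Reln and 7451 in Htr4 nuclei. The Htr4 nuclei were fewer in the saline female library, with 85, than in the other libraries, with 186 to 243.

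**Figure D3:**
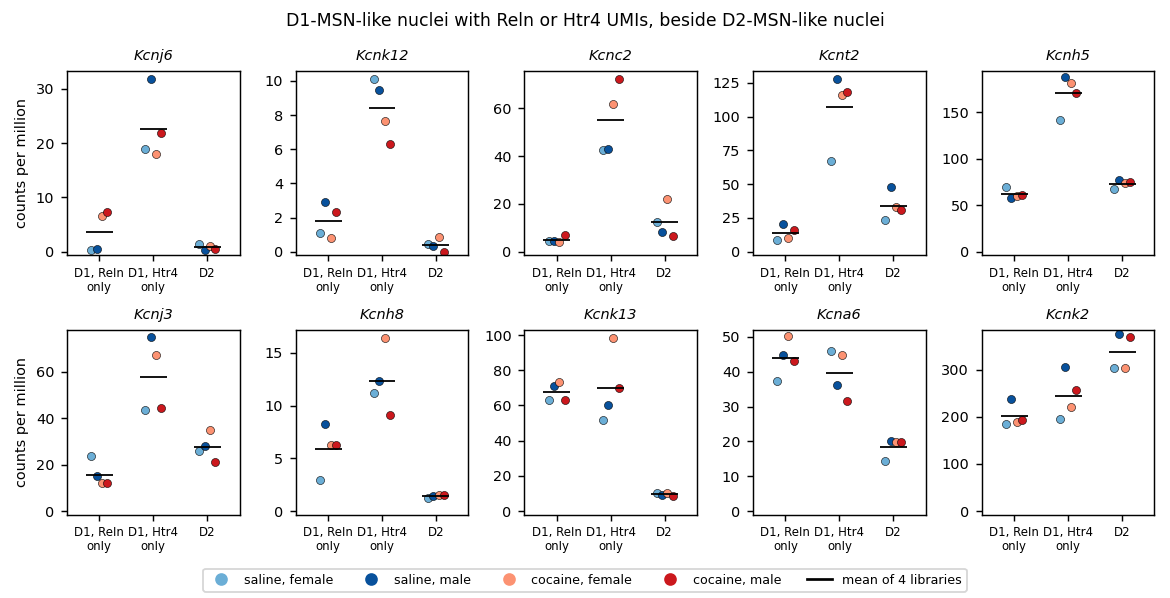
CPM of 10 members in D1-MSN-like nuclei with Reln but no Htr4 UMIs, with Htr4 but no Reln UMIs, and in D2-MSN-like nuclei. Points are the 4 libraries and lines their means. Kcnj6, Kcnk12, Kcnc2, Kcnt2, Kcnh5, Kcnj3 and Kcnh8 stand higher in the Htr4 than in the Reln nuclei, and Kcnk13 and Kcna6 stand above D2-MSN-like nuclei in both. D1-MSN-like nuclei with UMIs of both genes or of neither are not drawn.

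The third question was whether repeated cocaine changed these genes. In the MSN-like classes no member was called. In D1-MSN-like nuclei 0 of 52 members tested passed, beside 0.134% of 12686 genes (edgeR quasi-likelihood test with sex as a covariate), and 2 had an unadjusted p under 0.05 (3.85% of members, 8.21% of genes). In D2-MSN-like nuclei 0 of 48 passed, beside 0.0399% of 12532 genes, and 5 had an unadjusted p under 0.05 (10.4% of members, 8.67% of genes). In eccentric-MSN-like nuclei 0 of 53 passed (0.365% of genes), with 4 at an unadjusted p under 0.05 (7.55% of members, 8.34% of genes). DESeq2 called no member in these classes, and over all genes it called 8 (D1), 1 (D2) and 0 (eccentric). The members' log2 differences between cocaine and saline ran from -0.35 to 0.50 in the D1 class and from -0.28 to 0.50 in the D2 class, with medians of -0.02 and -0.04, and the median of all genes was 0.00 in both.

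The 3 smallest p-values were those of Kcnab1, Kcnma1 and Kcnj9 in the D1 class and of Kcnq1, Kcnab1 and Kcnma1 in the D2 class. Kcnab1 stood at 1917 and 1703 CPM in saline and 1695 and 1570 CPM in cocaine (female and male) in D1-MSN-like nuclei, with a log2 difference of -0.17 ± 0.06 (edgeR adjusted p = 0.526). In D2-MSN-like nuclei it stood at 2103 and 2071 CPM in saline and 1912 and 1767 CPM in cocaine, a difference of -0.23 ± 0.06 (adjusted p = 0.388). Kcnma1 stood at 1057 and 1006 CPM in saline and 940 and 943 CPM in cocaine in D1-MSN-like nuclei (log2 -0.15 ± 0.06, adjusted p = 0.571), and at 964 and 957 against 886 and 844 CPM in D2-MSN-like nuclei (-0.20 ± 0.06, adjusted p = 0.449). For both genes each cocaine library was below each saline library in either class. D1- and D2-MSN-like nuclei come from the same libraries, so these are not independent.

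Kcnq1 stood in D2-MSN-like nuclei at 29.96 and 33.6 CPM in saline and 40.1 and 46.7 CPM in cocaine (log2 0.40 ± 0.10, adjusted p = 0.358). Kcnj9 stood in D1-MSN-like nuclei at 14.2 and 17.3 CPM in saline and 20.1 and 20.1 CPM in cocaine (log2 0.33 ± 0.15, adjusted p = 0.617). Over a fixed list of well-known channel genes, differences ran from -0.33 to 0.33 in the D1 class (19 genes tested). In the D2 class they ran from -0.26 to 0.36 (18 genes tested). Kcnd2, Kcnd3 and Kcna4 were not members and are not covered. Kcnq5 differed by -0.05 ± 0.06 in the D1 class and by -0.06 ± 0.06 in the D2 class, Kcnj2 by -0.18 ± 0.11 and 0.01 ± 0.11, and Kcnk2 by -0.16 ± 0.09 and -0.06 ± 0.07. The cocaine effect was also compared directly between D1- and D2-MSN-like nuclei. None of 51 members was called (0.144% of 12534 genes were called by edgeR), and the smallest adjusted p was 0.533. An unadjusted p under 0.05 was found for 5 of the 51 members and for 843 of the 12534 genes. DESeq2 called no member, and 1 gene of all.

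In the other neuronal classes and in OPC-like nuclei no member was called: 0 of 28 in Sst-interneuron-like (0.286% of genes), 0 of 31 in Pthlh-interneuron-like (0.0872%), 0 of 37 in glutamatergic-like (0.0% of 8280 genes), 0 of 48 in other GABAergic (0.0% of 11659 genes) and 0 of 34 in OPC-like nuclei (0.0566%). An unadjusted p under 0.05 was found for 1 member in Sst-interneuron-like (3.57% of members, 7.31% of genes), 5 in Pthlh-interneuron-like (16.1% and 6.28%), 4 in glutamatergic-like (10.8% and 5.06%), 5 in other GABAergic (10.4% and 4.85%) and 1 in OPC-like nuclei (2.94% and 6.91%). DESeq2 called no member. Over all genes it called 2 in Sst-interneuron-like, 2 in Pthlh-interneuron-like, 3 in glutamatergic-like, 1 in other GABAergic and 1 in OPC-like nuclei. Singled out after its values were seen, Kcnh8 stood in glutamatergic-like nuclei at 57.1 and 56.6 CPM in saline and 11.3 and 8.72 CPM in cocaine (log2 -2.50 ± 0.35, edgeR adjusted p = 0.136). The number of glutamatergic-like nuclei, given above, differed between the treatments in the same libraries, and its part in the value was not tested.

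**Figure D4:**
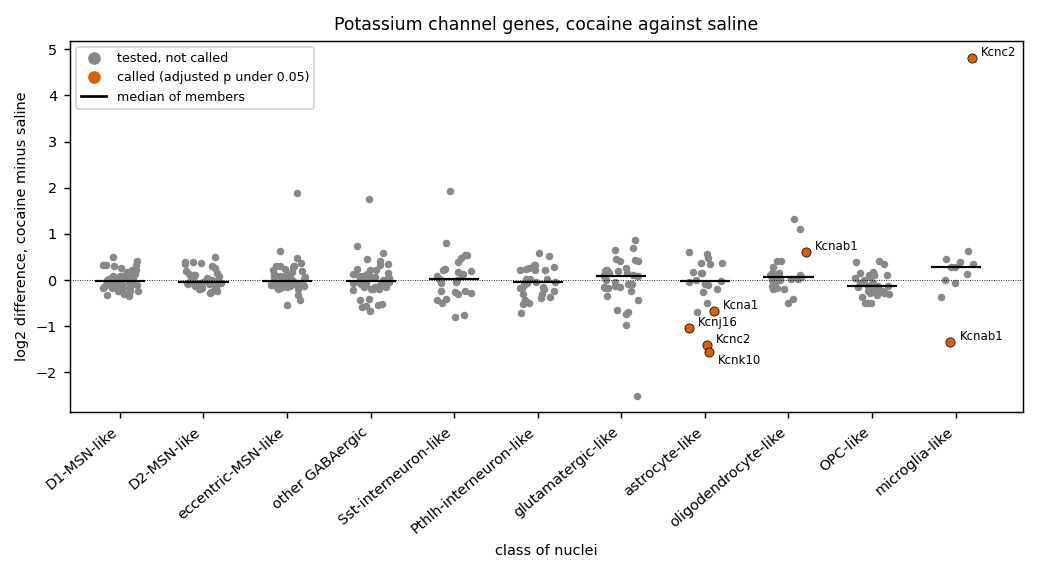
Log2 difference between cocaine and saline for each member tested, by class of nuclei. Grey points were not called, orange points had an edgeR adjusted p under 0.05, and black lines are the members' medians. The MSN-like classes lie between -0.53 and 1.88, and the called members are all in astrocyte-like, oligodendrocyte-like and microglia-like nuclei.

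Calls appeared in 3 glial classes. In these 3 classes edgeR's estimate of the spread was shared fully between genes (infinite prior degrees of freedom), so a gene's own spread between libraries carried no weight in its p. In astrocyte-like nuclei 4 of 22 members tested were called, all lower after cocaine, beside 1.19% of 10586 genes. Kcnj16, the inward rectifier named above, had 108 and 75 UMIs in saline and 55 and 31 UMIs in cocaine (female and male), that is 66.8 and 53.9 against 35.4 and 24.3 CPM. The treatments did not overlap, and the log2 difference was -1.04 ± 0.22 (edgeR adjusted p = 0.000394). Its UMIs were spread over 79, 62, 45 and 26 nuclei, with at most 4 in a nucleus. Its partner Kcnj10 was at 123 CPM in saline and 105 CPM in cocaine on average (log2 -0.25 ± 0.14, adjusted p = 0.645).

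Kcnc2 stood in astrocyte-like nuclei at 106 and 58.2 CPM in saline and 37.3 and 25.9 CPM in cocaine (log2 -1.40 ± 0.19, adjusted p = 1.42e-09). It had 171 and 81 UMIs in saline and 58 and 33 in cocaine, with at most 11 in a nucleus. Kcnk10 stood at 22.9 and 13.7 against 6.44 and 6.28 CPM (log2 -1.55 ± 0.41, adjusted p = 0.0182), and Kcna1 at 84.7 and 59.7 against 62.4 and 29.8 CPM (log2 -0.67 ± 0.18, adjusted p = 0.0253). Kcnk10 had only 37 and 19 UMIs in saline and 10 and 8 in cocaine, over 14, 10, 6 and 6 nuclei. For Kcna1 the treatments overlapped, since the cocaine female library was above the saline male library. Kcnma1 (979 and 986 CPM) and Kcne2 (203 and 192 CPM), both abundant in astrocyte-like nuclei, were not called.

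These calls depended on the fit. DESeq2 called only 1 gene of all in astrocyte-like nuclei, so its lack of member calls does not bear on the members alone. DESeq2 called none of the 4, a fit without the sex covariate called none, and none was called without the saline female or without the cocaine male library. Over the 4 fits that each left out a library the log2 difference ranged from -1.35 to -0.80 for Kcnj16, from -1.73 to -0.92 for Kcnc2, from -1.84 to -1.15 for Kcnk10 and from -1.32 to -0.24 for Kcna1. Of 14 marker lists of other cell types, 8 summed higher after cocaine in astrocyte-like nuclei without overlap, 1 lower and 5 overlapped. The lower one was the list of 7 D2-MSN markers, at 677 to 706 CPM in saline and 598 to 624 CPM in cocaine with Sp9 at 0. The summed CPM of the 10 general MSN markers was 1630 to 1750 in saline and 2020 to 2070 in cocaine with none at 0. The 5 Sst interneuron markers summed to 6.18 to 9.34 and 10.9 to 11 CPM with Chodl at 0, the 8 OPC markers to 48.2 to 55.6 and 45.7 to 65.1 CPM with Gpr17 at 0, and the 10 oligodendrocyte markers to 141 to 176 and 177 to 201 CPM with none at 0. The 6 vascular markers measured summed to 128 to 132 and 176 to 191 CPM with Abcc9 at 0. The part of such RNA in the result was not tested.

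In oligodendrocyte-like nuclei 1 of 26 members was called, beside 1.62% of 10729 genes. Kcnab1 stood at 33.1 and 31.2 CPM in saline and 51.1 and 52.4 CPM in cocaine, a log2 difference of 0.62 ± 0.15 (edgeR adjusted p = 0.00724). The treatments did not overlap. The level is 2.28% of that in D1- and D2-MSN-like nuclei, near the carry-over of Rgs9. The summed D1-MSN markers stood at 18.2 to 27.5 CPM in saline and 36.1 to 41.3 CPM in cocaine with none at 0. Other neuronal lists overlapped between treatments. In saline and cocaine the D2-MSN markers summed to 237 to 278 and 210 to 414 CPM with Sp9 at 0. The general MSN markers summed to 2000 to 2000 and 2000 to 2020 CPM, and the general neuron markers to 2200 to 2480 and 2110 to 2380 CPM, with none at 0. Of the 14 lists of other cell types, 6 were higher after cocaine without overlap and 0 lower, and their part in the result was not tested. Over the fits that each left out 1 library the log2 difference of Kcnab1 here ranged from 0.57 to 0.68. DESeq2 did not call Kcnab1, and called 2 genes of all in this class.

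In microglia-like nuclei 2 of 12 members were called, beside 1.26% of 5965 genes, and both rested on single nuclei. Kcnc2 had 2 and 1 UMIs in saline and 25 and 81 UMIs in cocaine (log2 4.82 ± 0.52, edgeR adjusted p = 1.11e-16), of which 24 and 81 lay in 1 nucleus of each cocaine library, and 1 and 0 UMIs remained without those nuclei. Kcnab1 had 28 and 29 UMIs in saline and 16 and 8 in cocaine (log2 -1.34 ± 0.39, adjusted p = 0.0493), of which 20 and 24 lay in 1 nucleus of each saline library. Without the nucleus with most UMIs in each library, Kcnab1 had 8 and 5 UMIs in saline and 14 and 7 in cocaine, so that the direction was no longer the same. Of the 14 marker lists of other cell types, 2 were higher and 4 lower after cocaine without overlap. Among the lower ones, the 9 astrocyte markers summed to 1400 to 1610 CPM in saline and 749 to 799 CPM in cocaine with Aqp4, Aldh1l1 and Gjb6 at 0, and their part in the result was not tested. Kcnk13, set apart in microglia-like nuclei, was not called (566 CPM in saline and 709 CPM in cocaine, log2 0.28 ± 0.15, adjusted p = 0.681).

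**Figure D5:**
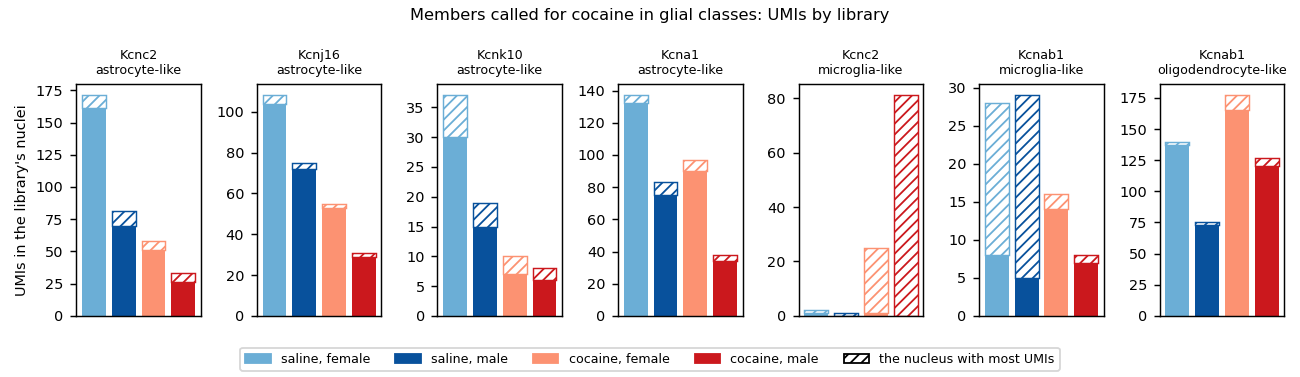
UMIs of the members called for cocaine in astrocyte-like, microglia-like and oligodendrocyte-like nuclei, by library. The hatched part of each bar is the nucleus with most UMIs of that gene, which holds 24 and 81 UMIs of Kcnc2 in the cocaine libraries of microglia-like nuclei and at most 4 UMIs of Kcnj16 in astrocyte-like nuclei.

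Of the list of 40 potassium-handling and partner genes, none of 33 tested was called for cocaine in D1- or D2-MSN-like nuclei by edgeR or DESeq2. In edgeR 1 (D1) and 3 (D2) had an unadjusted p under 0.05, beside 8.21% and 8.67% of all genes. In astrocyte-like nuclei 1 of 25 was called higher (Cntnap2, log2 0.42 ± 0.11), in oligodendrocyte-like nuclei Adam23 was called lower (-0.51 ± 0.14), and in microglia-like nuclei Cntnap2 was called higher (0.80 ± 0.19) and Dlg2 lower (-0.87 ± 0.18). No other class had a call from this list. DESeq2 called none of the list for cocaine in any class, these glial calls included. Over all genes it called from 0 to 8 in a class.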

How the data were processed

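The deposited files hold raw UMI counts per gene and nucleus for each of the 4 libraries, made by the authors with Cell Ranger 6.1.2 per the file headers, on genome build rn7 per the submitters' processing notes. Whether intronic reads were counted is not given in the sources used here. Nuclei with fewer than 200 genes or more than 5% mitochondrial UMIs were dropped. The nuclei with the highest Scrublet scores (0.8% per 1000 nuclei) were removed, 1381 in all. Marker lists, without potassium channel genes, gated the nuclei, and 1124 of 8720 D1-, D2- and eccentric-MSN-like nuclei lay within 0.1 of a gate. Another 2710 neurons and 524 other nuclei were left ungated. Leiden clusters gave the same class for 71.3% of eccentric-MSN-like, 72.4% of other GABAergic and 78.0% of Sst-interneuron-like nuclei. In the other tested classes this share ran from 86.1% (Pthlh-interneuron-like) to 99.7% (astrocyte-like). A class entered the tests if each library gave 25 or more of its nuclei, so cholinergic-like and vascular-like nuclei were not tested.

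UMIs were summed per class and library. edgeR 4.0.16 (R 4.3.3) fitted quasi-likelihood models over all genes passing filterByExpr with TMM normalisation, with sex as covariate for cocaine and the library as block within libraries. Adjusted p-values are Benjamini-Hochberg over all genes tested. P-values measure the spread between these pooled libraries, which in astrocyte-, microglia- and oligodendrocyte-like nuclei was estimated over all genes alone. DESeq2 1.42.0, library totals alone, no low-count filter, a stricter gate, no doublet removal, classes from Leiden clusters (scanpy 1.11.5), no sex covariate and leaving out each library were the alternatives. The cocaine fit was tested on counts simulated from those of D1-MSN-like nuclei.

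The members and gene lists were chosen with earlier results of these data known. Named were the members called for cocaine, the 3 uncalled members with the smallest p in D1- and D2-MSN-like nuclei, up to 6 called members in each direction for D1 against D2, up to 4 per class, and a fixed list of well-known channels. Some genes that these rules would name are not reported here.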

Additional observations from a re-analysis of the deposited data

Results flagged for a closer look

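Kcnab1 and Kcnc2 were each called for cocaine in 2 glial classes with opposite signs in both sexes. Kcnab1 differed by a log2 of 0.62 in oligodendrocyte-like and by -1.34 in microglia-like nuclei. Kcnc2 differed by -1.40 in astrocyte-like and by 4.82 in microglia-like nuclei. The difference between the classes was not tested for either gene. Both microglial values rested on single nuclei: 24 and 81 UMIs of Kcnc2 lay in 1 nucleus of each cocaine library, and 20 and 24 UMIs of Kcnab1 in 1 nucleus of each saline library.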

How the results depend on the processing

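Counts of members against the other classes stayed within 1.5 times in each class under every alternative run, and 440 of 440 comparisons of named class genes kept their direction and call. No named value reversed. Between D1- and D2-MSN-like nuclei 20 members were called and 13 with DESeq2. Of the named D1 and D2 differences 103 of 110 comparisons kept their call; the calls of Kcnq3 and Kcnn1 were the ones lost. No member was called for a difference of the cocaine effect under any alternative run. For cocaine DESeq2 called from 0 to 8 genes of all in a class, so its counts of 0 members below do not bear on the members alone. Cocaine calls were unstable, with 7 calls over all classes, 0 with DESeq2, 4 with classes from Leiden clusters, 0 without the sex covariate and 3 to 12 when 1 library was left out. The astrocyte-like count of 4 became 0 with DESeq2, 1 with library totals alone, 0 with no low-count filter, 0 without the sex covariate and 0 to 5 when 1 library was left out. The microglia-like count of 2 became 0 with DESeq2, 1 with library totals alone, 0 with the stricter gate, 0 with no doublet removal, 0 with Leiden clusters, 0 without the sex covariate and 1 to 2 when 1 library was left out. The oligodendrocyte-like count of 1 became 0 with DESeq2, 2 with library totals alone, 4 with no doublet removal, 0 without the sex covariate and 0 to 0 when 1 library was left out. In D2-MSN-like nuclei the count of 0 became 1 with no low-count filter and 1 with no doublet removal (Kcnab1), and 1 with the stricter gate (Kcnq1). It became 1 in OPC-like nuclei with no doublet removal, 1 in Pthlh-interneuron-like nuclei with no low-count filter, and 1 in glutamatergic-like nuclei with no low-count filter and 1 with the stricter gate (Kcnh8). In Sst-interneuron-like nuclei it became 1 with library totals alone, 1 with no low-count filter, 1 with the stricter gate and 1 with no doublet removal. Leaving out 1 library gave 0 to 1 in Pthlh-interneuron-like, 0 to 2 in Sst-interneuron-like, 0 to 4 in glutamatergic-like and 0 to 2 in other GABAergic nuclei. The cause of these changes was not tested. The labels give no replicate numbers. The fit with sex as covariate pairs the saline and cocaine libraries of each sex, and the fit without it is the unpaired one. With 2 pooled libraries a treatment, and 252 to 351 nuclei in each of the 3 rarest classes, 28 to 37 of the 64 members passed the filter on low counts there. The size of difference that could be detected was not measured in those classes, nor in any class but the D1 class, whose counts alone were simulated.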
